A study of Homo sapiens with 36 samples.

Results

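The Mir-30 family of guide strands was followed through small RNA libraries of HEK293T cells that expressed WT-AGO2 or AGO2 variants. Its members were the miRNAs of the deposited table whose MirGeneDB name begins with Hsa-Mir-30- and carries no asterisk, the mark of a passenger strand. The table lists 6 such names, of which Hsa-Mir-30-P2b_5p and Hsa-Mir-30-P2d_5p hold identical values in all 36 libraries and were counted once. This left 5 members of 124 distinct miRNAs, or of 99 distinct guide strands. They are called P1a, P1b, P1d, P2a and P2b/P2d here.

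HEK293T cells are a human line of embryonic kidney origin that is easily transfected. The cells were transfected with Flag/HA-tagged WT-AGO2, with 1 of its 4 variants (D619N, F182del, G604R or N359H), or with the empty Flag/HA vector, each together with a plasmid for EGFP. Small RNA of the whole lysate (input) and of what anti-HA beads pulled from it (immunoprecipitate, IP) was sequenced, in 3 replicates of each of the 12 conditions. The cells kept their own untagged AGO2, so an input also holds miRNAs that the tagged protein did not carry. The table holds miRNAs, in which neither the cell line nor the construct could be checked.

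A miRNA acts as the guide of an Argonaute protein. The duplex cut out by Dicer is loaded onto AGO2, the passenger strand is removed, and the guide stays bound with its seed, the bases behind its first base, exposed for pairing with target mRNAs. The Mir-30 guides share their seed, are found in many tissues including the kidney, and are known to repress, among others, the transcription factor SNAI1 and the autophagy gene BECN1.

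The seed is what makes these miRNAs a family, so the mature guides of the 4 Mir-30 loci held by the RefSeq table (GRCh38.p14) are shown first, 5′ to 3′, with the seed (bases 2 to 8) in capitals.
hsa-miR-30a-5p: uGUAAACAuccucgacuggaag
hsa-miR-30e-5p: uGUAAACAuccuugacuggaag
hsa-miR-30c-5p: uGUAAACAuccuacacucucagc

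The seed is the same in all 3 guides, which make up 0.128% of the 2351 distinct mature sequences in the table, and no other sequence there holds it at these positions. The table is not complete for the family, with fewer guide sequences than the 5 distinct members measured, so this count covers the listed loci only. Counted from 1 at the 5′ end, hsa-miR-30e-5p differs from hsa-miR-30a-5p by C13U alone over 22 positions. hsa-miR-30c-5p differs from it by C13A, G14C, G18C, G19U and A20C. The mature guide of MIR30A lies at chr6:71403595-71403616 on the minus strand, and that of MIR30E at chr1:40754371-40754392 on the plus strand. The guide hsa-miR-30c-5p is encoded identically within MIR30C1, at chr1:40757300-40757322 on the plus strand, and within MIR30C2, at chr6:71377003-71377025 on the minus strand. In GENCODE 29, MIR30E and MIR30C1 lie in introns of NFYC, which encodes a subunit of the transcription factor NF-Y, and MIR30A and MIR30C2 in introns of the long noncoding RNAs LINC00472 and AL136164.2. The sources used here do not pair MirGeneDB names with these symbols, so no sequence is assigned to P1a, P1b, P1d, P2a or P2b/P2d. Reads of guides that differ by a single base can be split between members only as well as the counting allowed.

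The passenger strands fall into 2 seed groups, which the guides do not show. They are given for the strand readout described further on, again with bases 2 to 8 in capitals.
hsa-miR-30a-3p: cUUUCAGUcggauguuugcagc
hsa-miR-30e-3p: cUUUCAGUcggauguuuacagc
hsa-miR-30c-1-3p: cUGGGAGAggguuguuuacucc
hsa-miR-30c-2-3p: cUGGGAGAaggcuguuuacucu

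Levels are deposited as RPM, reads scaled to a fixed total of all reads of a library, and each value stood for a whole number of reads. The Mir-30 guides held 26 to 457 reads per library in the IP of the 5 AGO2 constructs (median 105) and 12 to 363 in the inputs (median 78). Total reads ranged from 16636 to 754009 in these IP libraries and from 9395 to 4162450 in the inputs, where replicate 1 of G604R, D619N and N359H was shallow (9395, 17118 and 148205 reads). Because the part of all reads that were miRNAs differed widely between libraries, levels are mainly given in percent of mature miRNA reads. In the IP of the empty vector, the control for what the antibody and beads pull down without tagged AGO2, the Mir-30 guides were at 0, 0 and 2 reads. These libraries held 175, 171 and 197 mature miRNA reads. A chi-square test did not tell them apart, though with so few reads it could have missed a difference. A count of 0 there allows a share of up to 1.71% and 1.75%, and the 2 reads, all of P1a, were 1.02%, so the shares say little. In RPM the contrast was large, at 0, 0 and 71.4 RPM for the empty vector and 1422, 1505 and 566 RPM for WT-AGO2. Intervals and limits from 0 counts cover counting error only.

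In the lysates, the Mir-30 guides made up 1.61% to 3.41% of mature miRNA reads over all 18 libraries. The input of WT-AGO2 was at 1.72%, 3.13% and 2.83% (mean 2.56% ± 0.741, SD, n = 3). The variants had input means of 2.14% ± 0.541 (D619N), 2.36% ± 0.253 (F182del), 2.56% ± 0.574 (N359H) and 2.88% ± 0.299 (G604R), and the empty vector had 2.68% ± 0.949 (SD, n = 3 each). Every one of these groups overlapped with the input of WT-AGO2.

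In the immunoprecipitates, the share of the family was lowest with D619N, and all variants overlapped with WT-AGO2. The IP of WT-AGO2 was at 1.33%, 2.49% and 2.64% (mean 2.15% ± 0.715, SD, n = 3). F182del followed at 1.35%, 1.66% and 2.59% (1.87% ± 0.643), N359H at 2.02%, 2.65% and 2.33% (2.33% ± 0.316) and G604R at 2.19%, 2.52% and 2.92% (2.54% ± 0.368). D619N was at 0.882%, 1.06% and 1.39% (1.11% ± 0.259, SD, n = 3), 0.516 times the mean of WT-AGO2. Its highest library lay just above replicate 1 of WT-AGO2, so that the groups overlapped, while the other D619N libraries lay below all WT libraries. Set beside the input of the same replicate, the share in the IP of D619N was 0.453, 0.615 and 0.507 times as high. For WT-AGO2 these ratios were 0.771, 0.795 and 0.930, and for F182del 0.624, 0.627 and 1.15. They were 1.01, 0.845 and 0.909 for N359H and 0.772, 0.788 and 1.13 for G604R. Over all 5 constructs the share was lower in IP in 12 of 15 pairs. Other miRNAs were lower in as many pairs or more, and this count was not set against sums of other families.

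**Figure D1:**
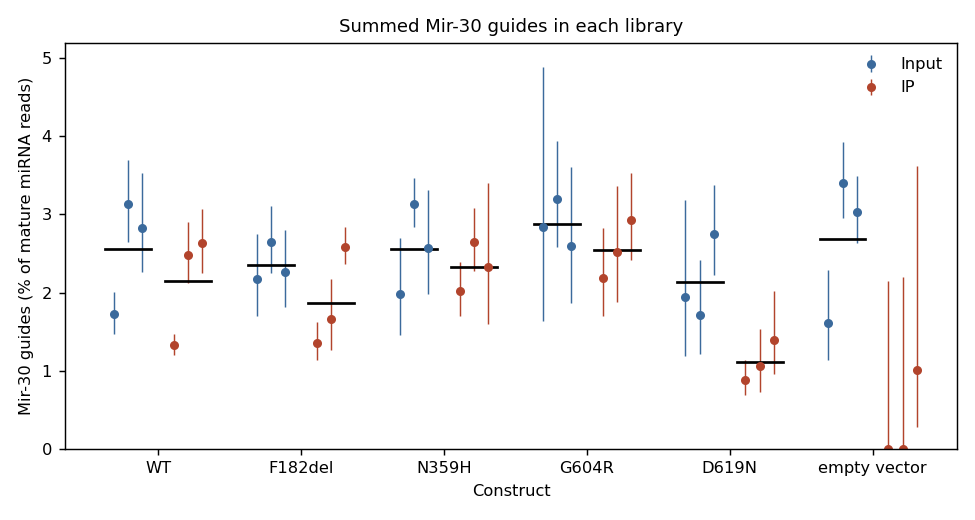
Summed Mir-30 guides in percent of mature miRNA reads (y axis) for each construct (x axis), in input (blue) and IP (red). Points are libraries with 95% Wilson intervals and black lines are means of 3 libraries, not drawn for the IP of the empty vector; the D619N immunoprecipitates sit between 0.882% and 1.39%, while the inputs of the same construct lie between 1.72% and 2.75%.

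P1a was the leading member. It was the highest of the 5 in 14 of 15 IP libraries of AGO2 and highest in 14 of 18 inputs, and P2b/P2d was the lowest in 13 and 16 of them. In the IP of WT-AGO2, P1a took 0.929% ± 0.252 of mature miRNA reads (SD, n = 3) and ranked 18th of the 99 guides. P1d (0.415% ± 0.191) and P2a (0.409% ± 0.109) did not differ beyond their spread. P1b (0.252% ± 0.133) overlapped with both, and P2b/P2d followed at 0.145% ± 0.0769, overlapping with P1b. P1a lay above every WT library of the other members. In the input of WT-AGO2, P1a (0.921% ± 0.143) and P2a (0.748% ± 0.225) overlapped, with P1d at 0.545% ± 0.309, P1b at 0.288% ± 0.161 and P2b/P2d at 0.0592% ± 0.0512. By rank among the 99 guides, P2a stood 22nd in this input and 30th in the IP, and P2b/P2d 75th and 48th.

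**Figure D2:**
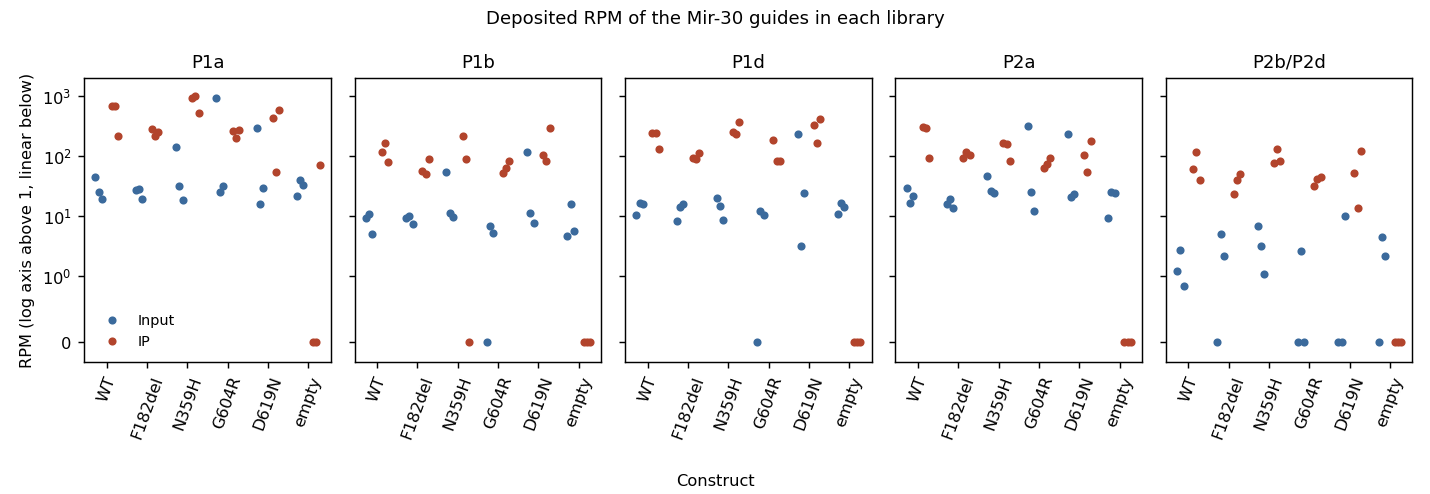
Deposited RPM of the 5 distinct Mir-30 guides (1 panel each) for each construct on the x axis, in input (blue) and IP (red), 1 point per library; the y axis is logarithmic above 1 RPM and linear below. In the IP of the empty vector all members are at 0 except P1a in 1 library (71.4 RPM).

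Whether a variant carried other amounts of the Mir-30 guides than WT-AGO2 was tested with limma on log2(scaled RPM + 1), the libraries having been scaled by the median of ratios. A guide was called at an adjusted p below 0.05 (Benjamini-Hochberg over all miRNAs tested) and an absolute log2 fold change above 1, and fold changes are on that scale. Of the 4 variants, D619N alone gave a call. There, 1 of 5 members was called, lower, in a comparison in which 14.6% of all 123 miRNAs tested were called and 11.4% were called lower. The called member was P2a. Its scaled RPM was 185, 322 and 276 in the WT libraries and 66.8, 102 and 90.4 in the D619N libraries, which lay apart. Its log2 fold change was -1.57 (SE 0.35, 95% interval -2.42 to -0.72, limma adjusted p = 0.0278), or 0.337 times the WT level. Few reads stand behind it: 86, 31 and 26 in WT-AGO2 and 6, 4 and 3 in D619N. The call was lost without WT replicate 2, WT replicate 3 or D619N replicate 1 (limma adjusted p = 0.0717, 0.0684 and 0.0556) and on RPM without the scaling (log2 fold change -1.02, adjusted p = 0.654).

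P1a moved by nearly as much but was not called. Its scaled RPM was 415, 727 and 636 in WT-AGO2 and 278, 102 and 301 in D619N, again without overlap, with a log2 fold change of -1.49 (SE 0.47, limma adjusted p = 0.0971). P2b/P2d had -1.11 (SE 0.74), P1b -0.31 (SE 0.58) and P1d -0.04 (SE 0.40). Thus 2 of 5 members lay apart from and below WT-AGO2, against 26% of all miRNAs tested. The median of the members was -1.11, near that of all miRNAs tested, -1.18. The scaling rested on 58 miRNAs only, so the median of all miRNAs tested also covers others. All 5 members were above 0 in every IP library of WT-AGO2 and D619N. How the family stood among miRNAs detected as widely was not tested, so the nearness of these medians does not show that it was unchanged. In share of mature miRNA reads it was at 0.516 times the WT mean, with overlapping groups. Without the scaling the median of all miRNAs tested was -0.60. Of the other families looked at, none of 9 Let-7, 6 Mir-17 and 2 Mir-181 guides tested was called here (medians -0.43, -2.17 and 0.57).

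For the other variants no Mir-30 guide was called in IP. With F182del, where 6.02% of all miRNAs tested were called, the 5 log2 fold changes lay between -0.22 and -0.06, around a median of all miRNAs of 0.01. The 95% interval of the leading member P1a was -0.65 to 0.44. With G604R (4.88% called), they lay between -0.33 for P2a and 0.34 for P2b/P2d. With N359H, where no miRNA was called by limma (0%) and 4.88% had an unadjusted p below 0.05, P1a and P2a went opposite ways. P1a had a log2 fold change of 0.60 (SE 0.27, limma adjusted p = 0.740), with scaled RPM of 659, 953 and 614 against 360, 597 and 511 in WT-AGO2. P2a had -0.83 (SE 0.41, limma adjusted p = 0.740), with 116, 152 and 94.5 against 161, 264 and 222. In each case the N359H and WT libraries did not overlap, where 1.63% of all miRNAs tested lay apart and higher and 8.13% apart and lower. P1b (-2.34, SE 1.59) was at 0 in replicate 3 of N359H, an IP library with 26 Mir-30 reads.

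**Figure D3:**
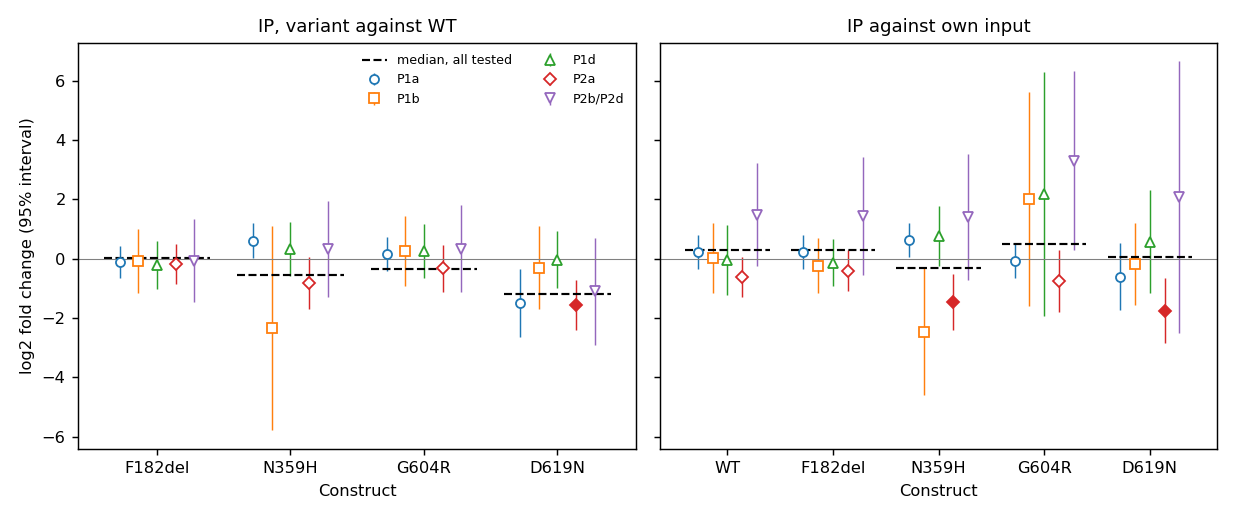
Log2 fold changes (y axis) with 95% intervals of the 5 Mir-30 guides by construct (x axis), in IP of each variant against IP of WT-AGO2 (left) and in IP against the input of the same construct (right). Filled symbols were called, and dashed lines are medians of all miRNAs tested; P2a is called for D619N on the left (-1.57) and for N359H (-1.45) and D619N (-1.75) on the right.

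The comparison of IP with the lysate it came from asks which guides the tagged protein held more or less of than the cell offered. P2a had a negative and P2b/P2d a positive log2 fold change in all 5 constructs. P2b/P2d was not called in any of them, at 1.49 (SE 0.77) for WT-AGO2, 1.44 (SE 0.95) for F182del, 1.39 (SE 1.03) for N359H, 3.31 (SE 1.22) for G604R and 2.08 (SE 1.94) for D619N. P2a was not called for WT-AGO2 (-0.62, SE 0.31, 11.9% of all miRNAs called), F182del (-0.40, SE 0.34, 23.5% called) or G604R (-0.75, SE 0.42, 8.57% called). P2a was called for N359H at -1.45 (SE 0.46, limma adjusted p = 0.0288), as the only member, where 11.7% of all miRNAs tested were called and 8.33% were called lower. Its share of mature miRNA reads there was 0.348%, 0.933% and 0.991% in input and 0.202%, 0.263% and 0.180% in IP. Without replicate 2 or replicate 3 the call was lost (adjusted p = 0.212 and 0.234), and with the replicate as a block P1b was called too (-2.46, adjusted p = 0.0218). For D619N, P2a was again the only member called, at -1.75 (SE 0.46, limma adjusted p = 0.0458), where 17.5% of all miRNAs tested were called and 4.85% were called lower. Its share was 0.519%, 0.698% and 0.671% in input and 0.0897%, 0.157% and 0.155% in IP. This call was lost with the replicate as a block (adjusted p = 0.0901), without replicate 2 (0.118) and without replicate 3 (0.324). Without replicate 3 of D619N or replicate 2 of G604R, P2b/P2d was called higher (3.88 and 4.93), and as the inputs then left held 0 reads of it, these sizes depend on the pseudocount. With that block D619N had 2 calls over all miRNAs in place of 18, and G604R had 0 calls in place of 9.

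A joint fit of the 15 pairs of input and IP, with the pair as a block, was added after these values were seen. In it P2a had a log2 fold change of -0.97 (SE 0.21, limma adjusted p = 0.000922), which passes the adjusted p but stops short of the fold required for a call. Without replicate 1, which holds the shallow inputs, it was -1.12 (adjusted p = 0.00338) and called. P2b/P2d was called higher, at 1.95 (SE 0.49, limma adjusted p = 0.00256), in a fit that called 34.1% of all 135 miRNAs, 20.7% higher and 13.3% lower. This size depends on the pseudocount, since P2b/P2d was at 0 in 5 of 15 inputs. With 10 RPM added instead of 1 it was 0.81, and without replicate 1 it was 1.37 (adjusted p = 0.0515), neither of which was called. P1a (0.11, SE 0.18), P1b (-0.13, SE 0.48) and P1d (0.70, SE 0.44) were not called. In the same fit 1 of 9 Let-7 guides was called higher and 2 lower, 1 of 7 Mir-17 guides higher and 4 lower, and none of 3 Mir-181 guides. All of these directions hold relative to the other miRNAs. In RPM without the scaling, all 5 members were called higher in IP in the joint fit, P2a with 1.92, beside a median of all miRNAs of 2.41.

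Pair by pair, the share of P2a in mature miRNA reads was lower in IP than in its own input in 15 of 15 pairs. Of the 124 distinct miRNAs, 7 (5.65%) were lower in every pair. The share of P2b/P2d was higher in IP in 13 of 15 pairs, and 10.5% of all distinct miRNAs were higher in at least as many. In 5 of the 15 inputs P2b/P2d held 0 reads, so any read in IP made those pairs higher. P1a, P1b and P1d were split, with 7, 6 and 5 of 15 pairs higher in IP.

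The make-up of the family differed between input and IP. P2a supplied 26.2% of the Mir-30 reads of an input (median of 15, range 17.5% to 40.6%) and 15.9% of those of an IP (7.69% to 23.1%), and its share of the family was lower in IP in 15 of 15 pairs. P2b/P2d supplied 1.75% in input (0% to 10.5%) and 7.41% in IP (3.70% to 9.09%), and was higher in 14 of 15, the exception being replicate 3 of D619N. These 14 include 5 pairs whose input held 0 reads of it, where any read in IP is a rise. The share of P1a was higher in IP in 12 of 15 pairs, with medians of 34.9% and 43.9%. P1b (12.7% and 10.97%) and P1d (17.1% and 18.2%) were without a common direction. The members share 1 sum, so a lower share of P2a raises those of the others.

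Between the immunoprecipitates, P2a took 21.6%, 20% and 16.8% of the Mir-30 reads of WT-AGO2. With N359H it took 10%, 9.94% and 7.69%, and with D619N 10.2%, 14.8% and 11.1%, all below the lowest WT library. G604R (10.5%, 15.9% and 16.2%) lay below as well, close to it except at 10.5%, and F182del (17.1%, 23.1% and 17.1%) did not. The P1 members together made up 74.2% ± 1.94 of the family in WT-AGO2, 84.0% ± 1.78 with N359H and 82.6% ± 1.88 with D619N (SD, n = 3 each), while F182del was at 74.2% ± 4.72 and G604R at 78.5% ± 5.01. These shares are descriptions without a test.

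**Figure D4:**
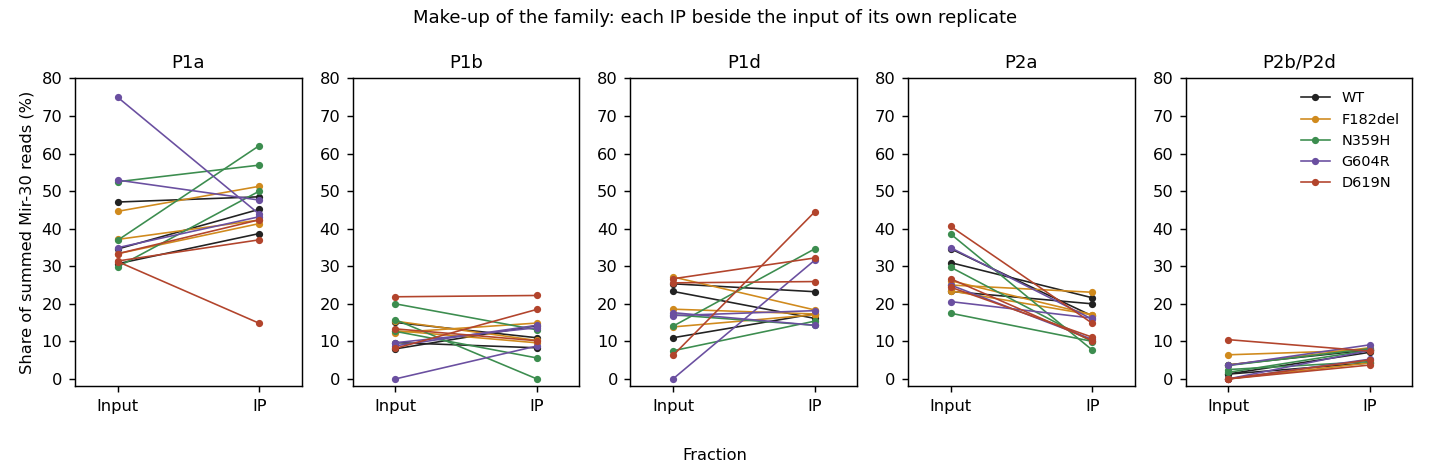
Share of each Mir-30 guide in the summed Mir-30 reads (y axis, percent) in input and in the IP of the same replicate (x axis), 1 line per pair, coloured by AGO2 construct. The lines of P2a fall in 15 of 15 pairs (medians 26.2% and 15.9%) and those of P2b/P2d rise in 14 of 15 (medians 1.75% and 7.41%), 5 of them from inputs with 0 reads.

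The lysates themselves gave no call. In each of the 5 comparisons with the input of WT-AGO2, limma called none of the 5 Mir-30 guides and 0% of all miRNAs tested, and no Mir-30 guide had an unadjusted p below 0.05, as 2 to 11 of all 105 to 114 miRNAs did. The input log2 fold changes of P2a lay between -0.39 for D619N and -0.11 for the empty vector. Whether the difference between IP and input of a variant was other than that of WT-AGO2 was tested as an interaction, and again 0 of 5 guides was called for any variant. The share of all miRNAs called was 0.741% for F182del, 0% for N359H, 1.54% for G604R and 3.94% for D619N, and with the pair as a block 6, 0, 0 and 1 miRNAs were called, none of them a Mir-30 guide. P2a came nearest with D619N, at -1.19 (SE 0.49, unadjusted p = 0.0335, limma adjusted p = 0.245), the only member under 0.05 before adjustment, as 18.1% of all miRNAs were in that fit. That P2a passed the threshold with D619N and N359H against input and not with WT-AGO2 therefore does not show that these constructs differ.

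The passenger strands listed for the family were Hsa-Mir-30-P1a_3p*, Hsa-Mir-30-P1d_3p* and Hsa-Mir-30-P2d_3p*, summed here against all the guides. They reached at most 27.4 reads per 100 guide reads in an IP library of AGO2 (replicate 1 of F182del). Among inputs the highest ratio was 33.3 (replicate 1 of G604R, with 4 passenger and 12 guide reads). A single strand could stand closer to its own guide. In the IP of F182del, Hsa-Mir-30-P2d_3p* held 26 reads and P2b/P2d 47. There were 16.1, 2.58 and 5.81 passenger reads per 100 guide reads in the IP of WT-AGO2 and 10.3, 3.76 and 6.67 in the inputs of the same replicates, so the IP was above its input in replicate 1 and below it in the others. Of the 77 passenger reads in the IP of WT-AGO2, replicate 1 held 64. The IP of D619N had 13.6, 0 and 0 per 100, and its 8 passenger reads were all in replicate 1. Hsa-Mir-30-P2d_3p* was read in 7 of 15 IP libraries of AGO2 (48 reads) and in 2 of their 15 inputs (5 reads). Hsa-Mir-30-P1d_3p* held 88 reads in 10 IP libraries and 29 in 8 inputs, and Hsa-Mir-30-P1a_3p* 59 reads in 8 IP libraries and 55 in 13 inputs.

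With D619N, Hsa-Mir-30-P1d_3p* was called lower in IP (limma adjusted p = 0.00444, with 11.4% of all miRNAs called lower), a call lost on RPM as deposited (0.0565) and in a joint fit of the IP groups (0.0729). It was at 100.04, 38.8 and 14.6 RPM in WT-AGO2 and at 0 in all D619N libraries. A count of 0 allows 0.0448%, 0.117% and 0.155% of mature miRNA reads there, and the WT libraries were at 0.0935%, 0.0642% and 0.0680%, so only the limit of replicate 1 lies below them and no fold is given. The strand was also at 0 in all D619N inputs, against 5, 3 and 0 reads in those of WT-AGO2, where it was not called (-1.38, SE 0.69, limma adjusted p = 0.862) except without WT replicate 3 (-2.24, adjusted p = 0.0152). In IP of F182del, Hsa-Mir-30-P2d_3p* was called higher than in input (limma adjusted p = 0.0145, with 15.9% of all miRNAs called higher), at 0.162%, 0.0638% and 0.0567% of mature miRNA reads against 0 in the inputs, where 0 allows 0.0567% to 0.10%. Without replicate 2 this call was lost (adjusted p = 0.0507), as it was with 10 RPM added instead of 1 (log2 fold change 0.97). In the joint fit of input and IP, Hsa-Mir-30-P1a_3p* was called lower in IP (log2 fold change -1.73, SE 0.59, limma adjusted p = 0.0213, with 13.3% of all miRNAs called lower), while its guide was not called (0.11). It was at 0 in 7 IP libraries, so the size depends on the pseudocount (-0.72 with 10 RPM, not called). On RPM as deposited it was -0.08, and the call was lost without replicate 2 (adjusted p = 0.197), without replicate 3 (0.228) and without the libraries of WT-AGO2 (0.0702), N359H (0.0836) or G604R (0.0715).

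The guides whose profile was most like that of the summed family were Hsa-Mir-28-P2_5p, Hsa-Mir-92-P1d_3p and Hsa-Mir-191_5p. Likeness was the root mean square difference of the centred log2 shares over the means of 11 conditions, the IP of the empty vector left out, among 38 other guides with a mean of at least 100 RPM in IP. It was 0.16, 0.18 and 0.28 on the log2 scale. These guides were at 0.592% ± 0.237, 1.73% ± 0.694 and 0.798% ± 0.259 of mature miRNA reads in the IP of D619N and at 1.02% ± 0.0897, 3.87% ± 0.643 and 1.94% ± 0.984 in that of WT-AGO2 (SD, n = 3 each). The conditions compared include these 2 immunoprecipitates, so lower shares with D619N follow from how the guides were picked. The shares of a library sum to the same total, so the profiles are not independent.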

How the data were processed

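Small RNA libraries were made with the TruSeq Small RNA kit and sequenced as 36 bp single-end reads. The authors processed them with sRNAbench and MirGeneDB 2.1, on GRCh38 per the labels, and deposited RPM (reads scaled to a fixed total of all reads of a library) of 135 mature miRNAs, with an adjustment of read counts that is not explained. All values above 0 were whole multiples of 1 read, within 0.01 of a read, from which reads and totals were inferred. Members and lists were chosen with earlier results of these data known. Named are all Mir-30 guides and listed passengers, and the 3 guides most alike.

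Moderated linear models were fitted in R 4.3.3 with limma 3.58.1, with a mean-variance trend, to log2(scaled RPM + 1), with median-of-ratios scaling. They covered miRNAs of at least 1 scaled RPM in at least 2 of 3 libraries of a group, and were adjusted over all rows tested. The models were also run on simulated data. The changes set there were larger than those of the Mir-30 guides called as reported, so that run cannot tell how sure calls of this size are. RPM are not counts, so no count model was fitted. Sequences and coordinates are from RefSeq, hosts from GENCODE 29. The labels number the replicates without saying what they are, so p-values measure the spread between these libraries. The study saved each input from the lysate that went on the beads. IP and input of the same number were therefore taken as a pair, which the labels do not state. The correlations of IP and input deviations ranged from -0.16 to 0.33. Between constructs, all 3 correlations were above 0.1 in 1 of 9 comparisons, the inputs of G604R and WT-AGO2 (0.16, 0.24 and 0.21). No comparison of IP with its input passed this cutoff, so it cannot tell whether the numbers pair samples. Of 36 pairs of replicates, the 3 within the empty-vector IP were not told apart by a chi-square test of their reads. Their values are not identical, so they are given library by library. IsomiRs were not analysed here.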

Additional observations from a re-analysis of the deposited data

How the results depend on the processing

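Where a Mir-30 guide was called, the number called moved under many of the alternatives: 7 of 16 for IP of D619N against WT-AGO2, 5 of 12 each for IP of N359H and of D619N against input, and 8 of 17 for the joint fit. For IP of D619N against WT-AGO2, 1 in the analysis as reported, it was 2 with a pseudocount of 10 RPM, 0 on RPM as deposited, 2 in a joint fit of the groups, and 0 to 2 with a library left out. For IP against input it was 5 on RPM as deposited for WT-AGO2 and for F182del (0 as reported), and 3 for G604R, where a left-out replicate gave 0 to 1. For N359H (1 as reported) it was 3 on RPM as deposited, 2 with scaling to the sum of mature miRNAs, 2 with the replicate block, and 0 to 1 with a replicate left out. For D619N (1 as reported) it was 0 with no filter on low values, on RPM as deposited, with identical rows collapsed and with the replicate block, and 0 to 1 with a replicate left out, the call without replicate 3 being P2b/P2d higher and not P2a. The replicate block changed no other call of a Mir-30 guide. In the joint fit of input and IP, added after seeing the data (1 as reported), it was 0 with a pseudocount of 10 RPM, 5 on RPM as deposited, and 2 with scaling to the sum of mature miRNAs, with identical rows collapsed, by adjusted p alone, and without the libraries of WT-AGO2, F182del or G604R. It stayed at 1 without the block.

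RPM as deposited turned directions in IP against input. Among members called as reported or on RPM as deposited, these were P1d 3.73 and P2a 3.17 for WT-AGO2, P1b 2.73, P1d 2.88 and P2a 2.63 for F182del, P2a 2.05 for N359H and 1.05 for D619N, and P1b 2.74 and P2a 1.92 in the joint fit. Members called in neither fit are not listed, though some of them turned as well. These values hold the enrichment of all miRNAs, whose median moved from 0.28 to 3.74 for WT-AGO2. Other causes were not tested. The family shares moved by less than 1 SD with guide strands alone as the denominator and with every row counted. Leaving out 1 of 3 libraries cannot move a mean by 1 SD, so that alternative could not decide this. The comparisons of variant inputs, the interactions and the IP of F182del, N359H and G604R against WT-AGO2 kept 0 Mir-30 guides. A planned count model on reads inferred from RPM was not run, since the table holds too few low values to establish that they are unadjusted counts. Depth limits the members in IP of D619N, with 27 to 59 Mir-30 reads per library, in replicate 3 of the N359H IP, with 26, in replicate 1 of the G604R and D619N inputs, with 12 and 15, and in the IP of the empty vector, with 0 to 2. How reads of near-identical guides were divided was not tested.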
